A study of Mus musculus with 21 samples.

Results

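The Hedgehog genes described here were *Shh*, *Ptch1*, *Gli1*, *Gli2*, *Gli3*, *Hhip*, *Smo*, *Boc* and *Cdon*, taken by gene symbol, and all 9 were found among the 23983 genes of the expression table. Their levels were read in 9 RNA-seq libraries of mouse notochord progenitors (NotoPs), mesoderm progenitors (MPs), trunk notochord and cultured counterparts, and T and Foxa2 binding near them in 2 ChIP-seq peak lists. The comparison sets cells that make the ligand against genes of the response. Each condition had 1 library, so no difference carries an SD or a p-value, neighbouring levels cannot be ranked against a spread, and every fold describes the libraries compared.

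Hedgehog is a secreted signal. The notochord is a known source of Sonic hedgehog, which patterns the overlying neural tube and the adjoining somites. Without ligand the receptor Ptch1 holds back Smo, and with ligand Smo becomes active and the GLI factors switch on targets, among them *Ptch1*, *Gli1* and *Hhip* themselves. Boc, Cdon and Gas1 help cells to bind the ligand, whereas Ptch1 and Hhip limit it.

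Embryonic cells came from embryos made with mouse embryonic stem cells of an F1 line (F1G4, C57BL/6N x SV129) that carried the BAC reporters T::H2B-Venus, Noto::H2B-mCherry and Foxa2::H2B-mTurquoise. Embryos were pooled. NotoPs were sorted from caudal ends as positive for all 3 reporters, MPs from caudal ends as positive for T only, and trunk notochord as positive for all 3 from trunk tissue, each at E8.5 and E9.5. The cultured cells came from 1 stem cell line with TRE::Foxa2-IRES-EGFP at the Rosa26 locus, T::H2B-mCherry-T2A-irTA and Noto::H2B-mTurquoise, so that doxycycline induces *Foxa2* in cells that express *T*. NMPdiff cells were T+ and Noto- at day 3, MPdiff cells T+ and Noto- at day 4, and NotoPdiff cells T+ and Noto+ at day 4 after 1 ng/ml doxycycline. All cultures received bFGF and CHIR99021 and all carried the same transgenes. ChIP-seq used unsorted day 4 cultures enriched for NotoPdiff cells. Embryonic and cultured libraries were sequenced on different instruments, and ratios were therefore taken only within each source, while ranges over all 9 libraries span both.

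*Noto*, *T* and *Foxa2* were used for sorting, so their levels check the labels and are no result. *Noto* was 152 and 164 FPKM in NotoPs, 27.5 and 20.8 FPKM in trunk notochord and 0 in both MP libraries. The 8 notochord markers, the gate genes among them, summed to 709 and 718 FPKM in trunk notochord, against 1348 and 1099 FPKM for the NotoP libraries and 79.3 and 165 FPKM for the MP libraries, and *Chrd* was at 0 in E9.5 trunk notochord. The MP genes *Tbx6* and *Msgn1* were listed at 0 in both trunk libraries, but NotoPs held them (*Tbx6* 44.0 and 27.8 FPKM, *Msgn1* 20.0 and 46.6 FPKM). The 8 MP markers summed in NotoPs to 399.9 and 330.8 FPKM, to 243 and 602 FPKM in MPs and to 17.4 and 7.29 FPKM in trunk notochord. The E8.5 MP library, which by the study's supplement came from the fewest cells and had the fewest reads of the embryonic libraries, listed 13945 genes (58.1%) at 0, against 44.7% to 51.7% in the other embryonic libraries and 31.6% to 34.4% in the cultured ones. For *Ptch1*, *Gli2*, *Boc* and *Cdon*, whose E8.5 ratios over this library differed by more than 1.5 times from those over the E9.5 MP library, both are given below. By the same supplement, both trunk notochord libraries also came from fewer cells and had fewer reads than the NotoP and E9.5 MP libraries. The part of this in the trunk values, low ones and those at 0 above all, was not tested.

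Places where T and Foxa2 peaks overlap near the 9 genes are shown first, since they are the sites that bear on both factors. Overlap of at least 1 bp defined a shared peak, and 4 shared peaks with their T summit within 200 kb of a start site are described. They lay in intron 2 of *Shh*, in intron 3 of *Gli3* (140 kb into the gene), in intron 1 of *Smo* and 116 kb upstream of *Cdon*. Each stretch below runs from 50 bases before the first to 50 bases after the last of the T and Foxa2 summits, on the plus strand of mm10 (GRCm38). Capitals mark exact matches to a T-box word (TCACAC) or a forkhead site (TGTTTAC or TATTTAC) on either strand, and a stretch with no capitals holds none.
Shh intron, chr5:28459323-28459547: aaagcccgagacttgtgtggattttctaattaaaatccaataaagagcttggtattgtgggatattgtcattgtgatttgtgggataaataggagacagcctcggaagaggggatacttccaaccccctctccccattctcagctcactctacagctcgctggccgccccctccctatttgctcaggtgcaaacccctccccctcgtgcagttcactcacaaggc
Gli3 intron, chr13:15602711-15602964: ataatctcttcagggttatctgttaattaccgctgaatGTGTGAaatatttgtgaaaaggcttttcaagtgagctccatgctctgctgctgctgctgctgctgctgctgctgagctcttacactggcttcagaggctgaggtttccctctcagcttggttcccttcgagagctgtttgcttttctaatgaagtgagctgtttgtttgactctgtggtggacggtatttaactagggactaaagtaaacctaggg
Smo intron, chr6:29748079-29748305: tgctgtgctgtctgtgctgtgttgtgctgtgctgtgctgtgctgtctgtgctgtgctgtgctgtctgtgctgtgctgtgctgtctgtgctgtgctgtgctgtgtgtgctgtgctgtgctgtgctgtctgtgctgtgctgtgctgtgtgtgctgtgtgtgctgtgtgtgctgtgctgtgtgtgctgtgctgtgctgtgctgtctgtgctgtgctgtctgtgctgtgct
Cdon upstream, chr9:35305404-35305506: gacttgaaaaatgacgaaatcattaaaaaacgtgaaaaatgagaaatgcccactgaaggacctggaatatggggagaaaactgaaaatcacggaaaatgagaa

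The T-box word occurred once in the *Gli3* stretch. Over all T peaks, 23.4% held the T-box word within 50 bases of the summit, against 6.10% of positions 10000 bp away, and 18.5% of Foxa2 peaks held a forkhead site, against 3.20%. The T-box word was shortened with its share in these same peaks known, so its 23.4% is a description and no test. The intronic *Shh* stretch held neither word. The *Smo* stretch was a run of short tandem copies, and the 24 bases at its T summit occurred 345 times in the genome, whereas those of the other 3 occurred once. The reference marked all of the *Smo* and *Cdon* windows as repeats, 0% of the *Shh* windows, and 23.8% of the *Gli3* window at its T summit. The letters of the *Cdon* stretch resemble the mouse major satellite, a repeat of pericentromeric DNA. This peak had the highest fold enrichment of both lists, 32.2 for T and 32.1 for Foxa2, with summits 2 bp apart. The part of repeats in the enrichment at *Smo* and *Cdon* was not tested.

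*Shh*, which encodes the ligand, was well above 0 in every library labelled as notochord or notochord progenitor and was near or at 0 elsewhere. It reached 468 FPKM in E8.5 and 607 FPKM in E9.5 trunk notochord, where it ranked 109th and 59th of all genes. NotoPs held 161 FPKM at E8.5 and 178 FPKM at E9.5. Among cultured cells, NotoPdiff held 30.2 FPKM and ranked 2185th. The 4 libraries of MP, NMPdiff and MPdiff cells lay between 0 and 0.343 FPKM, and 3 of them were listed at 0. These 4 are called libraries without *Shh* below. The sets are formed by the level of *Shh*, so their gap in *Shh* is no result. The 5 others were those sorted as positive for *Noto*. The ratio of trunk notochord to NotoPs was 2.91-fold at E8.5 and 3.40-fold at E9.5, whereas E9.5 exceeded E8.5 by 1.11-fold in NotoPs and 1.3-fold in trunk notochord. *Shh* differed more between caudal end and trunk than between the stages in these libraries. The other ligands were not part of this: *Ihh* did not exceed 1.06 FPKM and *Dhh* did not exceed 0.136 FPKM in any library.

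**Figure D1:**
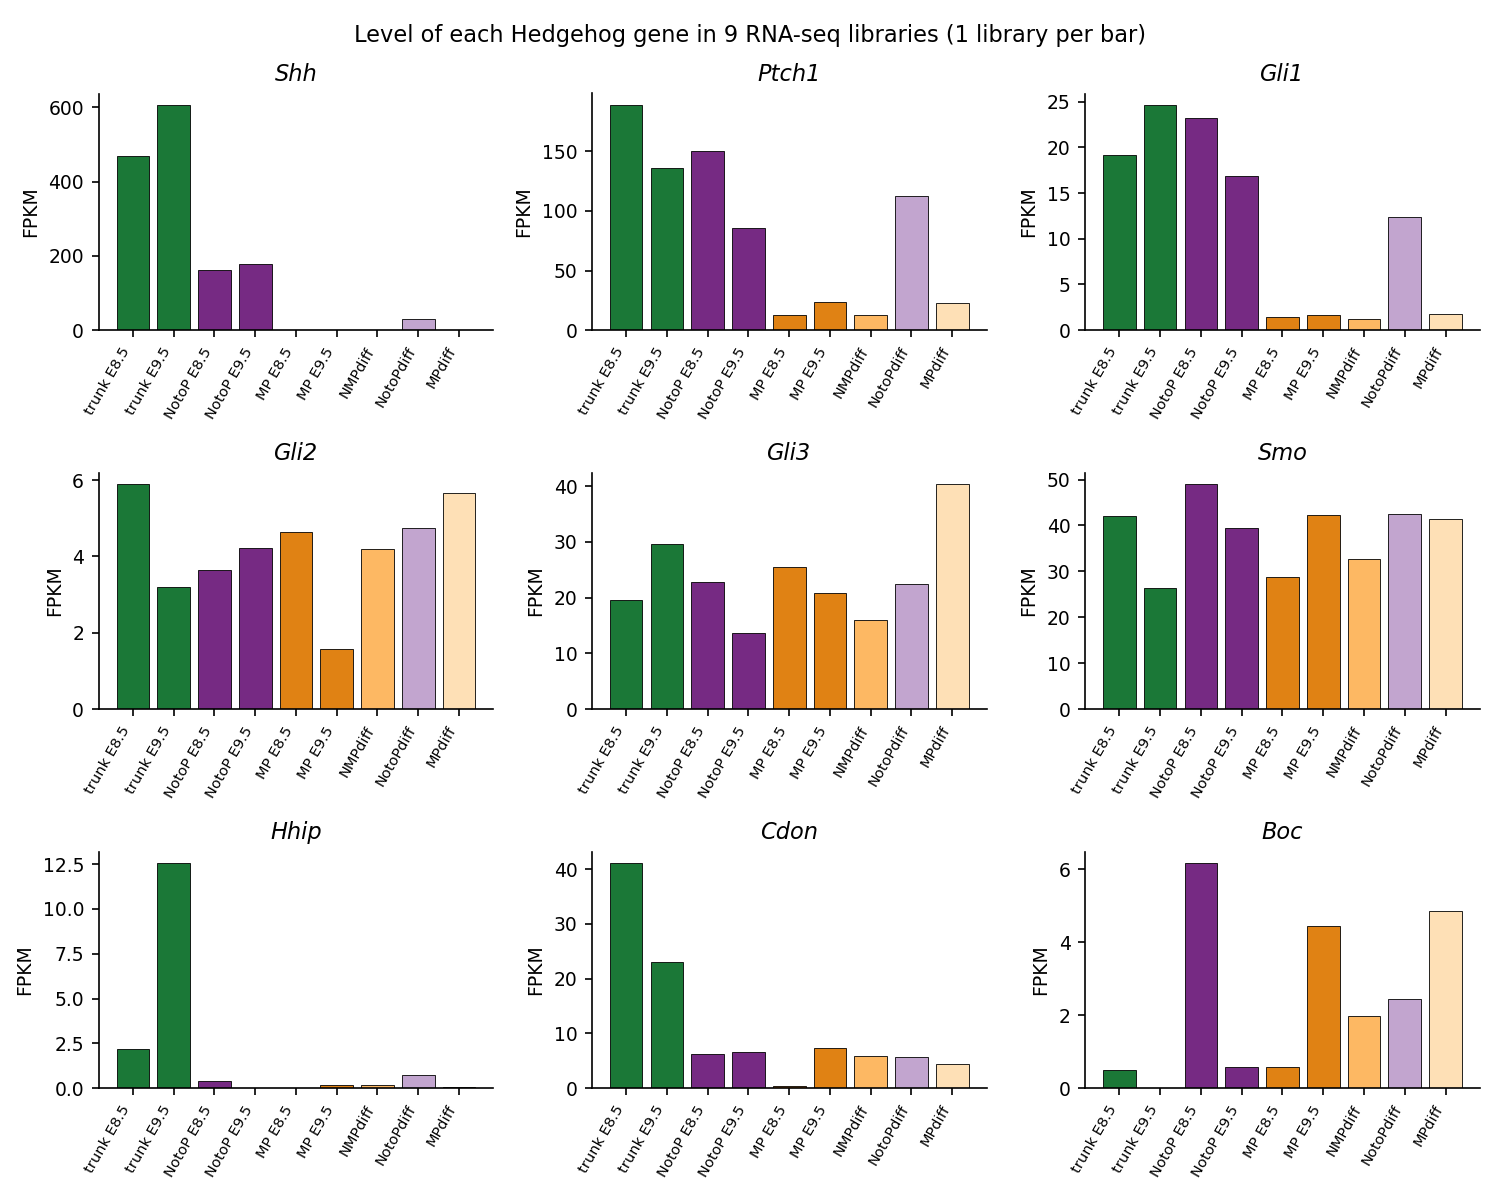
FPKM (vertical axes, linear and from 0, a separate scale for each gene) of the 9 Hedgehog genes in the 9 RNA-seq libraries (horizontal axes), 1 bar per library. *Ptch1* and *Gli1* are high in trunk notochord, NotoP and NotoPdiff bars and low in MP, NMPdiff and MPdiff bars. *Shh* is highest in trunk notochord, lower in NotoP bars, far lower in the NotoPdiff bar (30.2 FPKM) and near or at 0 in the others. *Gli3* and *Smo* are present in all, and *Hhip* and *Cdon* are highest in trunk notochord.

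*Ptch1*, the receptor and a target gene, was present in every library but was higher wherever *Shh* was found. It measured 189 and 136 FPKM in trunk notochord, 150.5 and 86.0 FPKM in NotoPs, and 112 FPKM in NotoPdiff cells. In the libraries without *Shh* it measured 12.7 and 23.7 FPKM in MPs, 12.4 FPKM in NMPdiff cells and 23.0 FPKM in MPdiff cells. The 2 sets, which were formed by the level of *Shh*, did not overlap: the lowest library with *Shh* (86.0 FPKM) was above the highest without (23.7 FPKM). Genes outside the pathway, such as *Nog* and *Slit2*, divided the libraries in the same way. The share of all genes that do so was not counted, here or for *Gli1* below. NotoPs exceeded MPs 11.9-fold at E8.5 and 3.63-fold at E9.5, since the value of NotoPs was lower and that of MPs higher at the later stage. Trunk notochord exceeded MPs 14.9-fold at E8.5 and 5.73-fold at E9.5, and NotoPdiff cells exceeded MPdiff cells 4.87-fold and NMPdiff cells 9.01-fold. Set against the E9.5 MP library, the log2 ratio of E8.5 NotoPs was 2.62 in place of 3.47 and that of E8.5 trunk notochord 2.94 in place of 3.80. *Ptch1* did not follow the level of *Shh* among the notochord libraries. Trunk notochord exceeded NotoPs only 1.26-fold and 1.58-fold in *Ptch1*, and *Shh* relative to *Ptch1* ran from 0.27 in NotoPdiff cells to 1.07 and 2.07 in NotoPs and 2.48 and 4.47 in trunk notochord.

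*Gli1*, the activator GLI that is itself a target, showed the same division. It measured 19.2 and 24.7 FPKM in trunk notochord, 23.2 and 16.9 FPKM in NotoPs and 12.4 FPKM in NotoPdiff cells. The libraries without *Shh* lay between 1.17 and 1.82 FPKM, and no library lay between 1.82 and 12.4 FPKM. NotoPs exceeded MPs 16.4-fold at E8.5 and 10.4-fold at E9.5, with a log2 ratio of 3.20 in place of 3.32 for E8.5 NotoPs against E9.5 MPs, and NotoPdiff cells exceeded MPdiff cells 6.84-fold and NMPdiff cells 10.6-fold. Trunk notochord and NotoPs did not differ in 1 direction, with ratios of 0.829 at E8.5 and 1.46 at E9.5.

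*Gli2* and *Gli3*, the GLI factors that cells also make without ligand, did not follow *Shh*. *Gli2* stayed between 1.57 FPKM (E9.5 MPs) and 5.90 FPKM (E8.5 trunk notochord). *Gli3*, mainly a repressor in cells without ligand, was present in all libraries, from 13.6 FPKM in E9.5 NotoPs to 40.4 FPKM in MPdiff cells, and its values overlapped between libraries with and without *Shh*. Among embryonic libraries they were 13.6 to 29.6 FPKM with *Shh* and 20.8 and 25.6 FPKM without, and in the cultures 22.4 FPKM in NotoPdiff cells against 16.0 and 40.4 FPKM. NotoPs over MPs gave log2 ratios of -0.16 and -0.58 for *Gli3* and of -0.28 and 1.02 for *Gli2*. Against E9.5 MPs both E8.5 NotoP values changed sign, to 0.12 for *Gli3* and 0.86 for *Gli2*, and *Gli2* of E8.5 trunk notochord was 1.43 in place of 0.29. In the cultures, *Gli3* was 1.80-fold higher in MPdiff than in NotoPdiff cells, and 2.60% of all genes had a lower ratio.

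The make-up of GLI transcripts differed between the 2 sets of libraries. *Gli1* made up 42.9% to 48.6% of the summed *Gli1*, *Gli2* and *Gli3* FPKM in trunk notochord and NotoPs and 31.4% in NotoPdiff cells, but 3.79% to 6.76% in MP, NMPdiff and MPdiff cells. *Gli3* made up 39.2% to 56.7% in the libraries with *Shh* and 74.9% to 86.7% in those without. The *Gli1* to *Gli3* ratio, taken within a library, was 0.982 and 0.833 in trunk notochord, 1.02 and 1.24 in NotoPs and 0.553 in NotoPdiff cells, and 0.0449 to 0.0779 in the other 4. The summed level itself overlapped, at 34.7 to 57.5 FPKM with *Shh* and 21.4 to 47.9 FPKM without. These are transcript levels, and processing of Gli2 and Gli3 proteins was not measured.

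**Figure D2:**
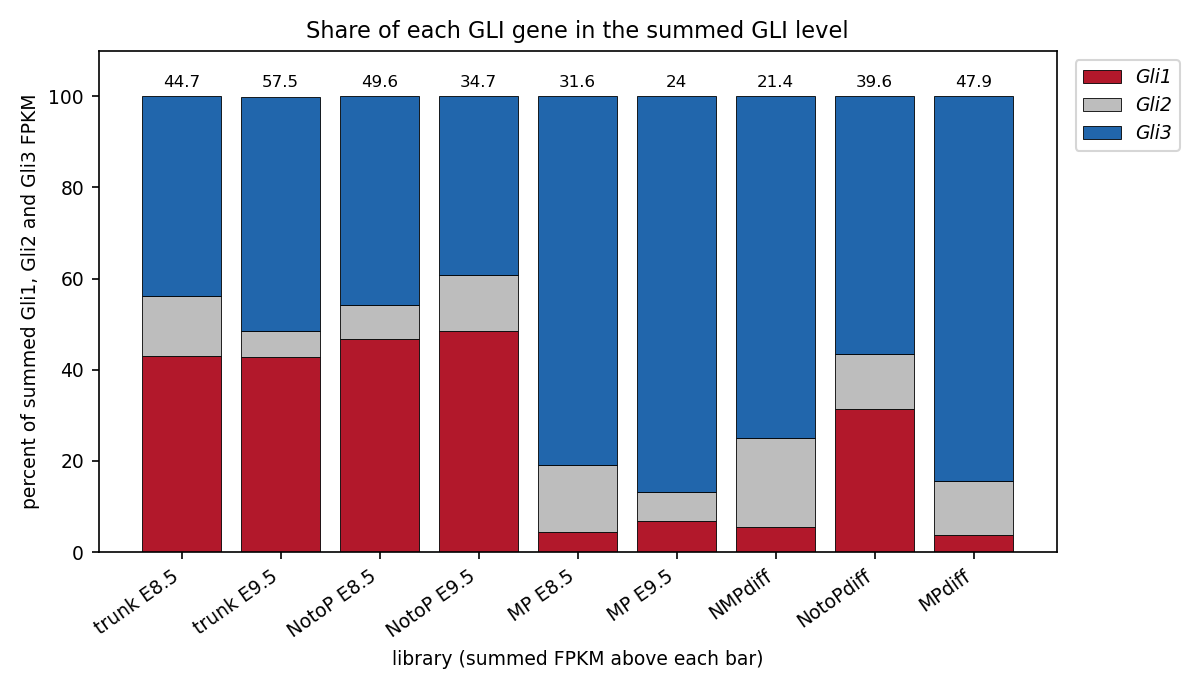
Percent of the summed *Gli1*, *Gli2* and *Gli3* FPKM (vertical axis) that each gene makes up in each of the 9 libraries (horizontal axis, 1 library per bar), with the summed FPKM above the bar. The *Gli1* share is 31.4% to 48.6% in the 5 libraries with *Shh* and 3.79% to 6.76% in the 4 without, and *Gli3* takes most of the remainder.

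*Smo*, the signal transducer, varied least of the 9 genes, from 26.3 FPKM in E9.5 trunk notochord to 49.1 FPKM in E8.5 NotoPs, a 1.87-fold range. The *Ptch1* to *Smo* ratio was 2.18 to 5.16 in the 5 libraries with *Shh* and 0.38 to 0.561 in the 4 without.

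*Hhip*, a ligand-binding membrane protein and known target, parted from *Ptch1* and *Gli1*. It was 2.18 FPKM in E8.5 and 12.6 FPKM in E9.5 trunk notochord, but 0.416 and 0 FPKM in NotoPs and 0.745 FPKM in NotoPdiff cells, in which *Ptch1* and *Gli1* were high. The remaining 4 libraries lay between 0 and 0.201 FPKM. In trunk notochord E9.5 exceeded E8.5 5.76-fold. No other gene of the 9 was at 1 FPKM or more in trunk notochord alone. Both trunk libraries also had higher sums of the neural tube, gut and somite markers than NotoPs of their stage. The 8 neural tube markers summed to 101 and 77.2 FPKM in trunk notochord against 39.4 and 32.0 FPKM in NotoPs. Most of the sum was *Irx3* (64.6 and 53.6 against 18.5 and 19.2 FPKM). *Pax3* was also higher (9.90 and 1.41 against 0.279 and 0.572 FPKM), as was *Nkx2-2* (1.62 and 7.02 against 0 and 0.629 FPKM). So was *Sox1* (3.27 and 0.589 against 0 and 0.479 FPKM). *Sox3* was higher at E8.5 only (7.46 against 2.28 FPKM) and *Sox2* at E9.5 only (14.5 against 10.5 FPKM). *Pax6* and *Olig2* were at 0 in both trunk libraries, and in NotoPs *Olig2* was at 0 and *Pax6* at 1.10 and 0 FPKM. The 7 gut markers in the table summed to 137 and 172 FPKM against 98.3 and 35.4 FPKM. *Sox17* was at 0 in both trunk libraries (3.58 and 0 FPKM in NotoPs). In trunk notochord *Afp* was 2.11 and 95.7 FPKM, *Ttr* 36.0 and 23.4 FPKM and *Apoa1* 6.68 and 12.0 FPKM. *Afp*, *Ttr* and *Apoa1* were at 0 in both NotoP libraries. *Cldn6* at E8.5 (29.2 against 47.0 FPKM) and *Epcam* at E9.5 (2.31 against 8.12 FPKM) were lower in trunk notochord. From E8.5 to E9.5 trunk notochord *Hhip* was higher, the gut sum was higher and the neural tube sum was lower. The gut sum was also 118.5 FPKM in E8.5 MPs (*Afp* 62.2 FPKM) and 4.43 FPKM in E9.5 MPs, in which *Hhip* was at 0 and 0.201 FPKM. The 8 somite and sclerotome markers summed to 62.2 and 43.9 FPKM against 42.2 and 35.2 FPKM, and the 8 blood markers to 2.28 and 1.23 FPKM against 0 in both. The higher somite sum at E9.5 rested on *Pax1*, also a listed Hedgehog target (13.5 FPKM in trunk notochord against 0 in NotoPs). *Meox1* (14.0 against 16.0 FPKM) and *Foxc1* (6.55 against 14.4 FPKM) were lower in E9.5 trunk notochord, while *Uncx*, *Pax9* and *Foxc2* were higher. Pluripotency markers summed to at most 3.12 FPKM in embryonic libraries, to 440.2 FPKM in NMPdiff cells and to 17.8 and 18.6 FPKM in NotoPdiff and MPdiff cells. The part of such cells in the trunk values was not tested, and in bulk samples fewer cells of a type and less RNA per cell cannot be told apart.

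The co-receptor *Cdon* was also highest in trunk notochord, at 41.2 FPKM at E8.5 and 23.1 FPKM at E9.5. All other libraries lay between 4.41 and 7.35 FPKM but for E8.5 MPs, with 0.360 FPKM. Trunk notochord exceeded NotoPs 6.56-fold at E8.5 and 3.49-fold at E9.5. NotoPs exceeded MPs 17.4-fold at E8.5 but not at E9.5 (0.898-fold), and against E9.5 MPs the log2 ratio of E8.5 NotoPs changed sign, from 2.42 to -0.20, and that of E8.5 trunk notochord was 2.34 in place of 4.95. The E8.5 difference therefore rested on the E8.5 MP library.

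*Boc*, the other co-receptor, was low everywhere, between 0 and 6.18 FPKM, and went opposite ways at the 2 stages. NotoPs held 6.18 FPKM at E8.5 and 0.582 FPKM at E9.5, and MPs 0.586 and 4.44 FPKM. It was 0.497 and 0 FPKM in trunk notochord, 1.98 FPKM in NMPdiff, 2.43 FPKM in NotoPdiff and 4.86 FPKM in MPdiff cells. The log2 ratio of NotoPs over MPs was 2.18 at E8.5 and -1.78 at E9.5. Against E9.5 MPs it was 0.40 for E8.5 NotoPs and -1.86 for E8.5 trunk notochord, in place of -0.08. *Gas1*, which encodes the remaining co-receptor of this group, was lower in the NotoP than in the MP library of both stages, at 3.31 against 13.3 FPKM and 1.03 against 14.2 FPKM. In trunk notochord *Gas1* was 10.5 and 14.4 FPKM.

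**Figure D3:**
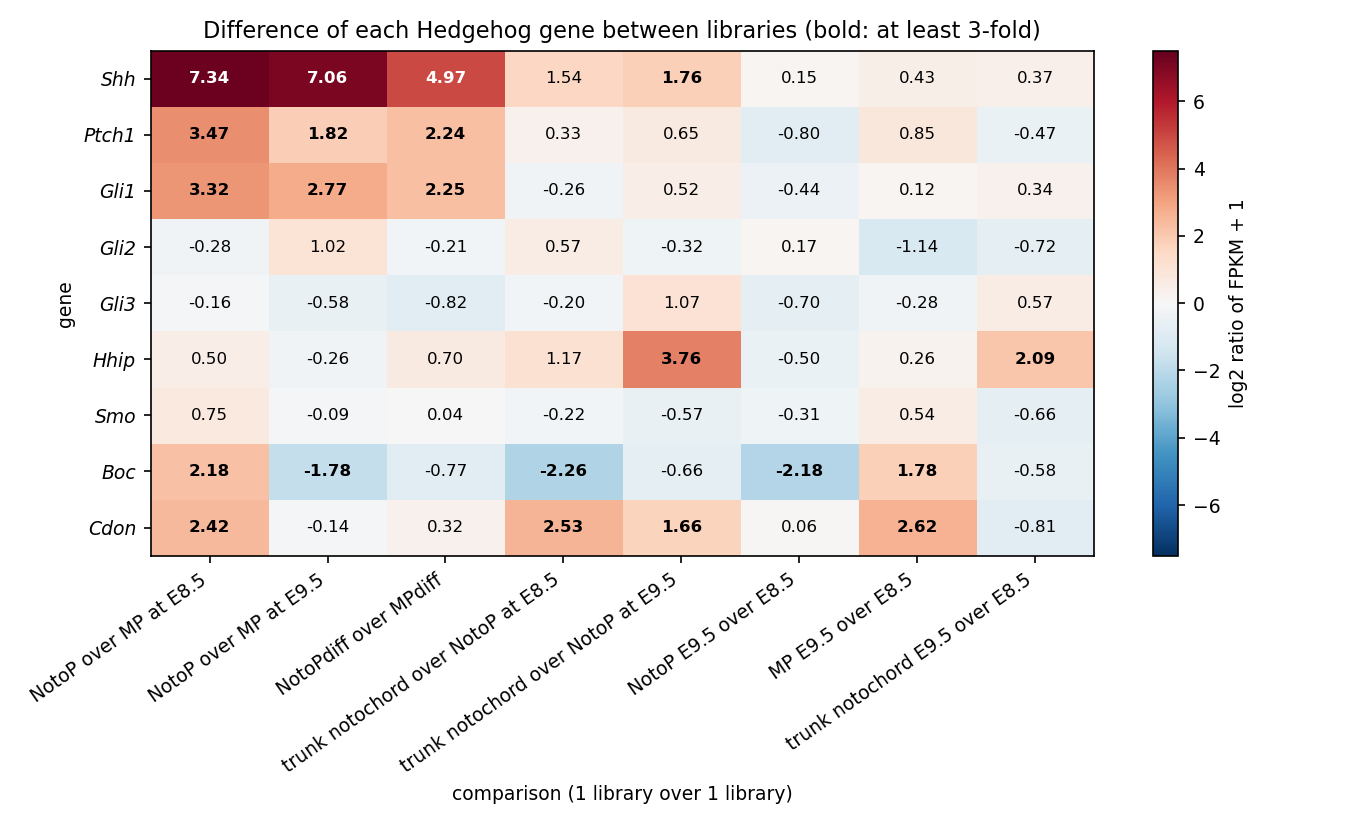
Log2 ratio of FPKM + 1 (colour and printed value) of each of the 9 genes (rows) for 8 comparisons of 1 library with another (columns), in bold where at least 3-fold. The ratios of *Shh*, *Ptch1* and *Gli1* are bold in both NotoP over MP columns and in NotoPdiff over MPdiff, those of *Boc* are of opposite sign in the NotoP over MP columns, and *Gli2*, *Gli3* and *Smo* have no bold value.

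Counting the genes at least 3-fold apart after adding 1 to FPKM places these values beside all 23983 genes. Genes under 1 FPKM in both libraries cannot pass, which lowers every share of all genes given here and below. Among genes of at least 1 FPKM in either library, 2.89% were higher in NotoPs over MPs at both stages and 0.525% lower. At E8.5 alone 2117 of 11738 such genes were higher and 963 lower. In E8.5 trunk notochord over MPs 20.6% were higher and 9.05% lower. In NotoPs over MPs at both stages, 3 of 9 genes were higher (*Shh*, *Ptch1* and *Gli1*), beside 1.31% of all genes, and 0 were lower, beside 0.238%. At E8.5 alone 5 were higher (with *Boc* and *Cdon*), beside 8.83% of all genes, and 0 lower, beside 4.02%. At E9.5 alone 3 were higher, beside 2.63%, and 1 was lower (*Boc*), beside 1.11%. With E9.5 MPs as the comparator for both stages the same 3 genes were higher and *Boc* and *Cdon* were not. The other 6 genes of the both-stage count did not pass.

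Trunk notochord over NotoPs gave 1 higher gene at E8.5 (*Cdon*), beside 4.58% of all genes, and 1 lower (*Boc*), beside 4.17%. At E9.5 it gave 3 higher genes (*Shh*, *Hhip* and *Cdon*), beside 4.33%, and 0 lower, beside 5.17%. Over MPs, E8.5 trunk notochord gave 5 higher genes (*Shh*, *Ptch1*, *Gli1*, *Hhip* and *Cdon*), beside 10.4%, and 0 lower, beside 4.58%. Against E9.5 MPs the log2 ratio of *Hhip* was 1.40 in place of 1.67, under 3-fold. At E9.5 it gave 4 higher (the same but for *Cdon*), beside 5.60%, and 1 lower (*Boc*), beside 4.49%. The comparisons that use the same library share its error.

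In the cultures, *Shh*, *Ptch1* and *Gli1* were again the 3 higher genes, in NotoPdiff over MPdiff cells (beside 1.55% of all genes) and over NMPdiff cells (beside 1.31%). None was lower in either, beside 0.442% and 0.796%. The gut markers, too, differed between NotoPdiff and MPdiff cells. They summed to 254 FPKM in NotoPdiff, 20.2 FPKM in MPdiff and 213.5 FPKM in NMPdiff cells. In NotoPdiff cells most of the sum was of the epithelial genes *Cldn6* (126, 3.38 and 17.4 FPKM) and *Cdh1* (88.5, 11.1 and 114 FPKM). *Epcam* (31.65, 5.06 and 81.05 FPKM) and *Sox17* (7.46, 0.545 and 0.600 FPKM) were also higher in NotoPdiff than in MPdiff cells. *Ttr* and *Apoa1* were at 0 in NotoPdiff cells. Their part in the *Shh*, *Ptch1* and *Gli1* values was not tested. Between the stages few passed. NotoPs gave 0 higher (beside 2.30%) and 1 lower, *Boc* (beside 1.99%). MPs gave 2 higher, *Boc* and *Cdon* (beside 6.02%), and 0 lower (beside 3.23%), with E8.5 MPs as the denominator. Trunk notochord gave 1 higher, *Hhip* (beside 4.28%), and 0 lower (beside 5.79%). The median log2 ratio of the 9 genes was 2.18 in NotoPs over MPs at E8.5 and -0.09 at E9.5, beside 0.00 over all genes at both, so the E8.5 median was not repeated at E9.5. The E8.5 median was the ratio of *Boc*, which was 0.40 with E9.5 MPs as comparator.

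A list of 60 further Hedgehog genes in the table covered the other ligands, their release, reception, the intracellular steps at the cilium and target genes. With the gate gene *Foxa2* left out, since the sort fixed its direction, 1 of 59 was higher in NotoPs over MPs at both stages, beside 1.31% of all genes, 2 were lower, beside 0.238%, and 56 did not pass. The higher gene was *Hsd11b2*, which inactivates glucocorticoids (32.1 and 42.1 FPKM in NotoPs against 0 and 3.96 FPKM in MPs). The lower genes were *Gas1* and *Foxc2*, a factor of paraxial mesoderm (2.77 and 2.13 FPKM against 28.6 and 23.7 FPKM). In NotoPdiff over MPdiff cells *Hsd11b2* was higher (beside 1.55% of all genes) and *Foxf1* lower (0.0402 against 36.6 FPKM, beside 0.442%), again leaving out *Foxa2*, which was the induced transgene there. The median log2 ratio of the 59 genes was 0.29 at E8.5 and 0.00 at E9.5, beside 0.00 over all genes at both.

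By role, 0 of 7 genes of ligand release passed at both stages. Over all genes 1.31% were higher and 0.238% lower, so a count of 0 in a role of few genes is near that share. Of its most abundant genes, *Ext1*, which builds heparan sulphate, ranged from 31.8 to 65.6 FPKM, the protease gene *Adam17* from 15.8 to 28.3 FPKM and *Disp1*, which releases the lipid-bearing ligand, from 5.65 to 16.5 FPKM. Of 6 genes of reception *Gas1* passed, while the glypican *Gpc3* was the most abundant gene of the list (68.8 to 1180 FPKM) with log2 ratios of 1.13 and 1.15, and *Gpc6* ranged from 12.0 to 51.3 FPKM. Neither the 14 negative nor the 12 positive intracellular genes had a member that passed. The most abundant negative ones were the kinase genes *Csnk1a1* (127 to 227 FPKM) and *Csnk1d* (14.8 to 41.4 FPKM) and the ubiquitin ligase subunit *Cul3* (66.4 to 145 FPKM). The most abundant positive ones were the kinase gene *Adrbk1*, now *Grk2* (3.91 to 29.2 FPKM), and the cilium transport genes *Dync2h1* (6.92 to 17.2 FPKM) and *Ift88* (4.21 to 24.7 FPKM). Among 18 targets without *Foxa2* 1 was higher and 1 lower, and the cell cycle genes *Ccnd1* (38.5 to 106 FPKM) and *Ccnd2* (26.3 to 70.2 FPKM) did not pass.

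**Figure D4:**
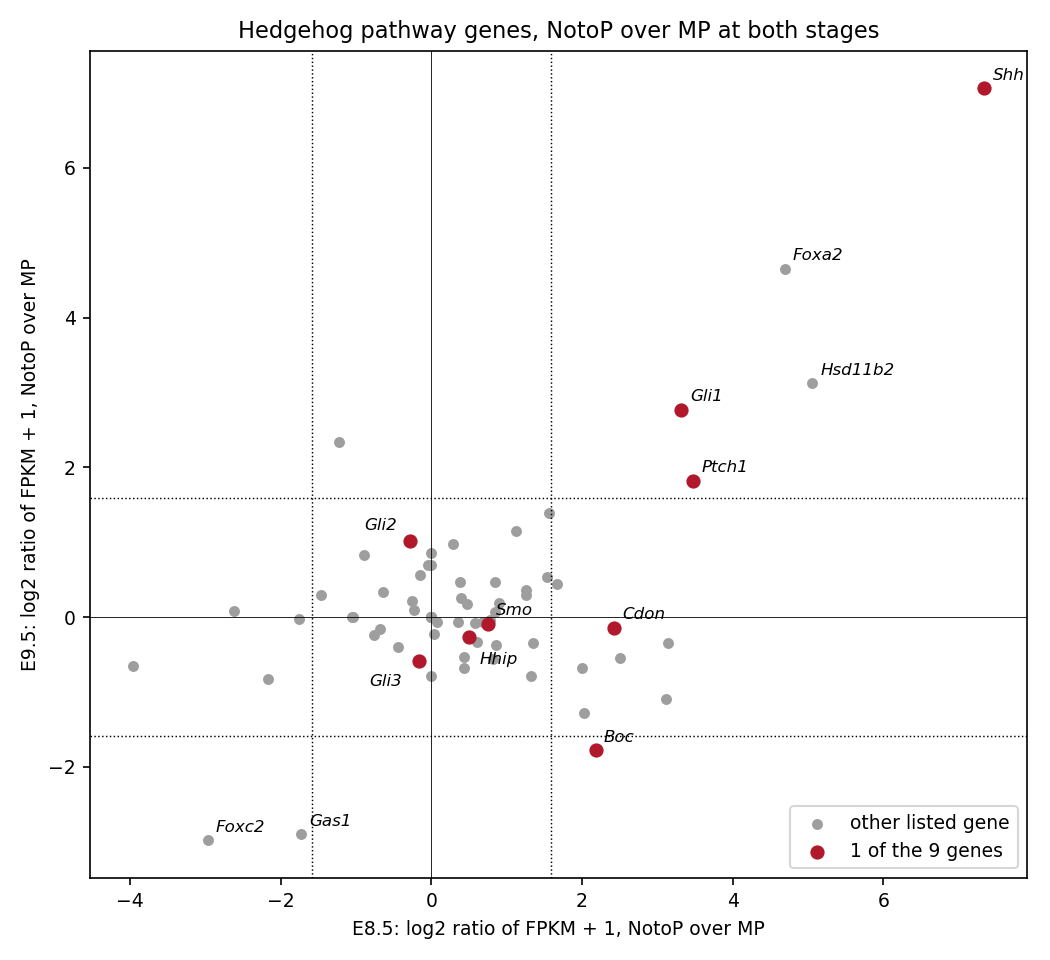
Log2 ratio of FPKM + 1 of NotoPs over MPs at E8.5 (horizontal axis) and E9.5 (vertical axis), 1 point per gene, for the 9 genes (red) and 60 further Hedgehog genes (grey), with dotted lines at 3-fold. *Shh*, *Ptch1*, *Gli1*, *Hsd11b2* and the gate gene *Foxa2* lie past both lines in the upper right, *Gas1* and *Foxc2* in the lower left, and *Boc* and *Cdon* pass the line at E8.5 but are not higher at E9.5.

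The genes whose pattern over the 9 libraries was most like that of *Shh*, by Pearson correlation of log2(FPKM + 1) among 10942 genes of at least 5 FPKM in a library, were *Etl4* (r = 0.989), *Slit2* (0.987), *Lmx1a* (0.984), *Samd3* (0.984) and *4921506M07Rik* (0.984). Those most like *Ptch1* were *Nog* (0.987), *Zfp935* (0.978), *Gli1* (0.973), *Tmod2* (0.972) and *Nsmaf* (0.972), and those most like *Gli1* were *Samd3* (0.986), *Cobl* (0.985), *Lmx1a* (0.983), *Halr1* (0.983) and *Shh* (0.982). *Gli1* stood 6th in likeness to *Shh*, and *Ptch1* 32nd. These values describe 9 libraries that fall into 5 with and 4 without *Shh*, and any gene of that division scores high. Rank correlation kept 0 of the 5 genes for each of *Shh*, *Ptch1* and *Gli1*, and the 6 embryonic libraries alone kept 1, 1 and 2.

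Peaks of T and Foxa2 were next read around each start site, which was the 5' end of the gene in GENCODE and lay within 786 bp of that of RefSeq for all 9 genes. The lists held 6875 T and 22684 Foxa2 peaks with a median fold enrichment of 7.45 and 7.19. A T summit lay within 100 kb of 6 of the 9 start sites (not of *Gli2*, *Gli3* or *Boc*), beside 43.9% of 21755 protein-coding genes, a Foxa2 summit of all 9, beside 73.2%, and a shared peak of 2 (*Shh* and *Smo*), beside 9.00%. The windows held 10 T and 31 Foxa2 peaks, of which 2 and 12 lay in masked repeats, beside 9.39% of all T and 39.7% of all Foxa2 peaks. Leaving out peaks in masked repeats took the *Smo* site away, so that 1 of 9 genes kept a shared peak, beside 7.84% of genes. A T summit was then left for 5 genes (*Gli1* lost its own), beside 39.7%. A Foxa2 summit was left for 7 (*Smo* and *Boc* lost theirs), beside 57.9%. Each factor had 1 library, and the lists come from cultures of mixed cells.

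Peaks that did not overlap are shown for comparison, as the T peak of highest fold enrichment within 100 kb of *Gli1*, *Ptch1* and *Cdon* and a Foxa2 peak with a forkhead word for *Gli1* and *Ptch1*, each with 50 bases on either side of the summit and with the same words in capitals.
Gli1 upstream, T, chr10:127377015-127377115: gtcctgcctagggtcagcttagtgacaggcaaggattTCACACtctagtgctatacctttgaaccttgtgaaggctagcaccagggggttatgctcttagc
Gli1 upstream, Foxa2, chr10:127377787-127377887: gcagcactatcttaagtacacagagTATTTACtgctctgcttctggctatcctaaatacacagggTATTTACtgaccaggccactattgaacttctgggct
Ptch1 intron, T, chr13:63556969-63557069: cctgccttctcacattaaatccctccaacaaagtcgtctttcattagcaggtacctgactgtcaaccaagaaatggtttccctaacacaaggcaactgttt
Ptch1 intron, Foxa2, chr13:63525264-63525364: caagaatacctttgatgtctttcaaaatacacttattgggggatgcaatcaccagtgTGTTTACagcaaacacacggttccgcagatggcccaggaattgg
Cdon intron, T, chr9:35424673-35424773: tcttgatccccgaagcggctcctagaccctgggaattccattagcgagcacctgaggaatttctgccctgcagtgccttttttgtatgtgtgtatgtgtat

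*Shh* (chr5:28456815-28467256, minus strand) carried 1 peak of each factor within 100 kb, the shared peak of intron 2. Its T fold enrichment was 4.35, which 93.3% of T peaks exceeded, and its Foxa2 fold enrichment 7.73, which 42.9% exceeded. The peaks overlapped by 120 bp with summits 124 bp apart. *Shh* is overlapped by *9530036O11Rik* and *Gm26894*, and the nearest summit to its start site was the intronic one of Foxa2, at 7759 bp.

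*Ptch1* (chr13:63508328-63573598, minus strand) carried 3 peaks of T and 5 of Foxa2 in its 100 kb window, and 3.84% and 5.63% of genes had as many or more. T peaks lay in intron 2 (16.6 kb into the gene, fold enrichment 13.4), in intron 15 (45.0 kb, 9.97) and 2533 bp upstream of the start site (9.44). Foxa2 peaks lay 27 bp into the gene (4.98), in intron 2 (10.7 kb, 9.30), in introns 15 and 16 (6.54 and 9.29) and 35.8 kb upstream (9.89). None of them overlapped, and the closest T and Foxa2 summits of the windows were 2560 bp apart. The reference marked 0% of all 8 windows as repeats.

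*Gli1* (chr10:127329882-127341974, minus strand) had none inside the gene. A T peak (fold enrichment 15.3) and a Foxa2 peak (12.5) lay 35.1 and 35.9 kb upstream, 324 bp apart without overlap, and were nearer to the start site of *R3hdm2*, at 3262 and 2490 bp. The T window was 91.1% masked repeat and the Foxa2 window 0%, and the latter held 2 forkhead words. The remaining Foxa2 peak lay in an intron of *Kif5a*, 98.8 kb downstream of the *Gli1* start site.

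*Gli2* (chr1:118834132-119053619, minus strand) held 5 peaks of Foxa2 and 0 of T in its 100 kb window, of which 3 windows were at least 50% repeat, and 0 T peaks within 200 kb. *Gli3* (chr13:15463235-15730026, plus strand) held 3 peaks of Foxa2 and 0 of T in its 100 kb window, the nearest in intron 1 at 2822 bp (9.97). Its shared peak in intron 3 had a fold enrichment of 17.1 for Foxa2, which 2.53% of Foxa2 peaks exceeded, and 6.35 for T. Over the whole gene it held 7 Foxa2 and 2 T peaks.

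*Hhip* (chr8:79965851-80058006, minus strand) had 10 Foxa2 peaks within 100 kb, and 0.0873% of genes had as many or more, but 4 of the 10 windows were at least 50% masked repeat, which leaves 6. Of the 10 peaks 9 were inside the gene, with fold enrichments from 3.93 to 12.5. Its only T peak in the window lay 65.4 kb upstream (7.56). This stands beside 0.745 FPKM of *Hhip* in sorted NotoPdiff cells, so the gene of the 9 with the most Foxa2 peaks was low in those cells. The peaks themselves were mapped in unsorted day 4 cultures, for which no RNA library was at hand. *Smo* (chr6:29735503-29761365, plus strand) had, beside the repeat of intron 1, a T peak 18.6 kb upstream in an intron of *Tspan33* (6.75) and a Foxa2 peak 91.4 kb upstream (4.20).

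*Boc* (chr16:44485049-44558897, minus strand) had 2 Foxa2 peaks within 100 kb, in intron 1 (6.00) and 51.2 kb upstream (5.94), both mostly masked repeat, and a T peak outside the window, 113 kb upstream (6.22). *Cdon* (chr9:35421128-35507652, plus strand) had a T peak 3595 bp into the gene, in intron 1, with a fold enrichment of 16.1, which 7.32% of T peaks exceeded. A further T peak lay 73.3 kb upstream (6.74), and its 1 Foxa2 peak in the window lay in intron 11 (4.90).

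**Figure D5:**
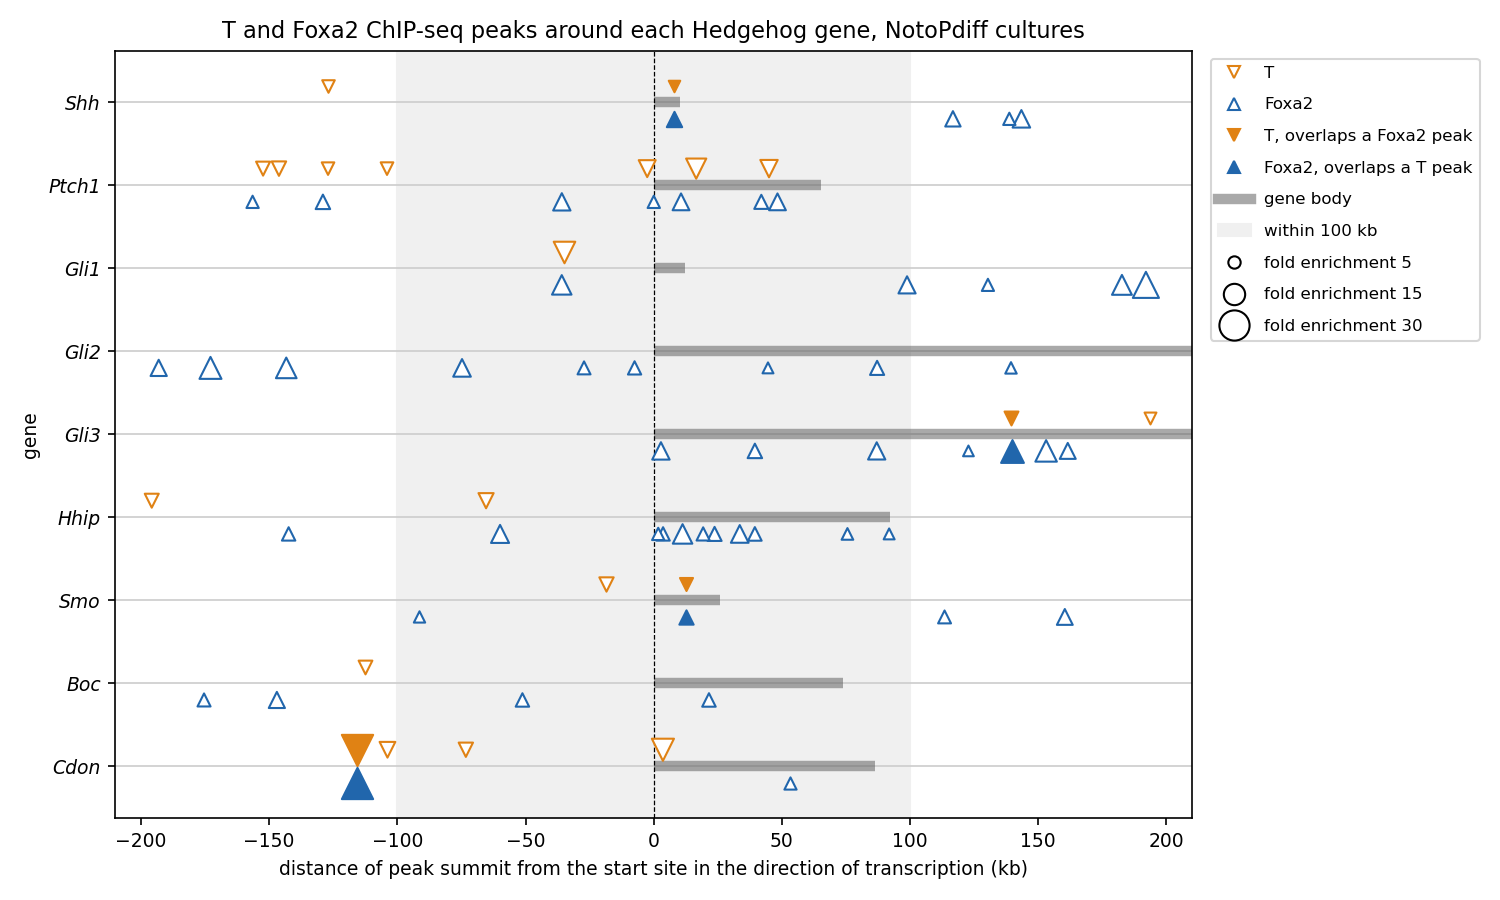
Distance of T (orange) and Foxa2 (blue) peak summits from the start site of each of the 9 genes in kb, up to 200 kb, in the direction of transcription (horizontal axis, genes in rows), with symbol size by fold enrichment, filled symbols for overlapping T and Foxa2 peaks, gene bodies as grey bars (cut at the edge for *Gli2* and *Gli3*) and the 100 kb window shaded. *Ptch1* and *Hhip* carry the most peaks within 100 kb, *Gli2* has no T peak, and the largest symbols are the overlapping pair upstream of *Cdon*.

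The GLI word GACCACCCA was in 0 of the 10 T and 0 of the 31 Foxa2 windows within 100 kb of the 9 genes, beside 0.189% of all T and 0.0573% of all Foxa2 peaks. The T-box word occurred in 2 of the 10 T windows (20%), beside 23.4% of all T peaks. A forkhead word occurred in 6 of the 31 Foxa2 windows (19.4%), beside 18.5% of all Foxa2 peaks. Both were near the share over all peaks. RefSeq promoters (GRCm38.p6, 250 bases before to 50 after a start) were given for 6 of the 9 genes, not for *Shh*, *Gli1* or *Boc*. The GLI word was in none of these 6, beside 0.253% of 32851 promoters. Those given for *Ptch1* (chr13:63565686-63565985) and *Cdon* (chr9:35451826-35452125) lay inside the genes, away from the start sites used here (63573598 and 35421128). The promoters at these 2 start sites were therefore not searched. No match says only that the letters were not in the window.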

How the data were processed

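Of 21 mouse samples, 9 RNA-seq libraries and 2 ChIP-seq peak lists were used, and the 10 ATAC-seq and histone ChIP-seq samples were not analysed here. RNA libraries were stranded and carried molecular identifiers, removed as duplicates with NuDup by the methods. The deposited expression values are FPKM, which the authors made on mm10 with Cufflinks by the methods, while the processing notes also name Cuffdiff. The deposited peak lists hold a fold enrichment (a ratio), a −log10 q-value and a score that was not used, and the authors called them with MACS at a q cutoff of 0.1. No control library is named for the peaks in the sources used here. The submitters' processing notes list TopHat2 2.1.1, Bowtie 1.2.2 and 1.3.1, Cufflinks 2.2.1, Cuffdiff, MACS3 3.0.0b1 and bedtools 2.23.0. The study's supplement gives reads per embryonic library, but the deposited table holds no counts per gene, so no counting interval was computed, and 0 may be a failed estimate.

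Ratios were log2 of FPKM + 1, which understates changes of low genes, and a gene was counted as higher or lower from 3-fold. Fold values in the text without a log2 are plain ratios of FPKM. Each group held 1 library, so there is no SD, SE or p-value. Peaks were assigned by summit within 100 kb of a GENCODE start site of mm10 and listed up to 200 kb from it, 1 region is not reported here, and motifs were searched in 101 bases around summits on both strands. The T-box word was shortened after its share in the peaks was seen. Summits at which at least 50% of these 101 bases are in lower case in the reference were called masked repeats.

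The 9 genes were named always. Of the Hedgehog list (71 symbols, 69 found, of which 60 are not among the 9, and 59 without the gate gene *Foxa2*), genes past 3-fold at both stages and the 3 most abundant per role were named, and the 5 genes most like *Shh*, *Ptch1* and *Gli1* were. Markers of notochord, mesoderm progenitors, neural tube, gut, somite and sclerotome, blood and pluripotent cells were summed. *Irx3*, *Afp*, *Sox17*, *Pax6*, *Olig2*, *Chrd*, *Cldn6*, *Cdh1*, *Ttr*, *Apoa1*, *Pax1*, *Meox1*, *Foxc1*, *Uncx*, *Pax9* and *Foxf1* were named after their values were seen. So were *Pax3*, *Nkx2-2*, *Sox1*, *Sox2*, *Sox3* and *Epcam*. The genes and lists were chosen with earlier results of these data known. Alternatives were other pseudocounts, folds, filters, scaling, windows, overlaps and libraries. Computation used Python 3.11.15, pandas 2.3.3, NumPy 2.4.6, pysam 0.24.0, samtools 1.23.1 and matplotlib 3.10.9, and was tested on simulated data.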

Additional observations from a re-analysis of the deposited data

Results flagged for a closer look

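*Boc*, which encodes a Hedgehog co-receptor, went opposite ways at the stages. NotoPs exceeded MPs at E8.5 (log2 ratio of FPKM + 1 of 2.18) and were below them at E9.5 (-1.78), so that the ratio at E8.5 minus that at E9.5 was 3.96. With 1 library per group and stage, the difference was not tested.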

How the results depend on the processing

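No paired analysis was possible because each group held 1 library. *Shh*, *Ptch1* and *Gli1* were the 3 genes higher in NotoP over MP libraries of E8.5 and E9.5 alike under every setting run. Of 154 alternative values of the counts 125 kept within 1.5 times and 29 did not. This tally does not measure robustness. The filter of 1 FPKM could not change a count, since genes under it cannot pass. Rescaling used factors of only 1 to 1.03, and counts of 0 that stayed at 0 were scored as kept. Of 315 single values 250 kept, 64 moved and 1 called value reversed. The sign changed in 4, all with E9.5 MPs as comparator. *Cdon* in E8.5 NotoPs, past 3-fold before, came to -0.20, and values under 3-fold went from -0.28 to 0.86 (*Gli2*) and -0.16 to 0.12 (*Gli3*) in E8.5 NotoPs and from 0.53 to -0.01 (*Smo*) in E8.5 trunk notochord. The use of E9.5 MPs as comparator and the filter on repeats were chosen after seeing the data.

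With pseudocount 5, the E8.5 NotoP over MP count of higher genes was 3, the higher counts of the MP and trunk stage comparisons were 0, and so were the lower counts of NotoPs over MPs at E9.5, trunk over NotoPs at E8.5, trunk over MPs at E9.5 and the NotoP stages (over all genes 2.38%, 0.855%, 0.967%, 0.179%, 1.08%, 1.18% and 0.334%). With pseudocount 0.1 there were 2 lower in NotoPs over MPs at E9.5 (5.30% of all genes) and in NotoP stages (5.81%), 2 higher in trunk over NotoPs at E8.5 (9.08%), 1 lower in trunk over NotoPs at E9.5 (12.0%) and in trunk stages (10.4%), 4 higher in MP stages (15.8%) and 4 lower in the list (0.809%). At 2-fold, 3 were higher in trunk over NotoPs at E8.5 (9.92%), 1 was lower in MP stages (7.13%) and 4 of the list, *Foxa2* included, were higher (3.37%). With E9.5 MPs as comparator, 3 were higher in E8.5 NotoPs (3.96%) and 1 was lower in E8.5 trunk notochord (3.13%). Genes with a shared peak were 4 within 250 kb, 5 in the interval between neighbouring genes, 1 at 50% overlap (*Smo*) and 1 without masked repeats (*Shh*). Of the 5 most alike genes, rank correlation kept 0 for *Shh*, *Ptch1* and *Gli1*, and the 6 embryonic libraries kept 1, 1 and 2. Beyond the constructions of these settings, the cause was not tested. Without replicates or counts per gene, low genes (*Hhip*, *Boc*) are the least certain.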
